A study of Mus musculus with 9 samples.

Results

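The 10 genes described here encode sensors of foreign and misplaced nucleic acid in the cytosol and endosome. With them are adaptors, a kinase and a transcription factor that several of the sensors, but not all, act through. They are Ddx58, Ifih1, Dhx58, Tlr3, Eif2ak2, Zbp1, Mavs, Tmem173, Tbk1 and Irf3, chosen by gene symbol from the 54532 genes of the table, and all 10 are among the 13915 genes with enough counts to be tested. Their levels were read by bulk RNA-seq in 9 libraries made from the mouse mammary carcinoma line 4T1 after 24 h. The Control group (3 libraries) received medium, the Cu_TCPP group (3 libraries) received Cu-TCPP(Fe)-PEG, which the labels describe as consuming glutathione (GSH), and the Au_TCPP group (3 libraries) received Au/Cu-TCPP(Fe)-PEG, described as a glucose-like oxidase that also consumes GSH. Both materials thus carry copper, the porphyrin with iron, and PEG, and doses are not given in the sources used here. All libraries come from 1 cell line, no label says that replicates were separate cultures, and p-values therefore measure the spread between these samples, which may be technical.

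Ddx58 encodes RIG-I and Ifih1 encodes MDA5, helicases that bind double-stranded or triphosphorylated RNA in the cytosol and pass the signal to MAVS on the mitochondrial surface. Dhx58 encodes LGP2, the family member without signalling domains, which tunes RIG-I and MDA5. Tlr3 reads double-stranded RNA in endosomes, Eif2ak2 encodes PKR, the kinase that stops translation on binding double-stranded RNA, and Zbp1 binds Z-form nucleic acid and can start necroptosis. Tmem173 encodes STING, the adaptor for cytosolic DNA, and TBK1 phosphorylates IRF3 below both adaptors, so that interferon and early antiviral genes are transcribed. Several of the sensors are themselves interferon-stimulated genes, transcribed through interferon-stimulated response elements (ISRE), whereas the adaptors and the kinase are largely constitutive.

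The start-site sequences are shown because they mark which of the genes hold such an element close to the start. RefSeq windows of 300 bases on GRCm38.p6 (250 before the start and 50 from it on) were at hand for 7 of the 10 genes; Dhx58, Zbp1 and Tmem173 had none. The ISRE letters, GAAA, any 2 bases and GAAA again, searched on both strands, occurred in 3 of the 7 windows, those of Ddx58, Ifih1 and Eif2ak2, and in 3.43% of 32817 windows of the same length. All 3 matches lie just past the start, at 2 to 11, 32 to 41 and 18 to 27 with the start base counted as 0. Each is printed 5′ to 3′ on the gene's strand with the match in capitals. The match in Ddx58 is on the other strand, so its capitals are the reverse complement of the motif.
Ddx58, chr4:40239804-40239833, minus strand: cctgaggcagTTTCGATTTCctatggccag
Ifih1, chr2:62646206-62646235, minus strand: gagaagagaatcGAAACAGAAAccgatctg
Eif2ak2, chr17:78882535-78882564, minus strand: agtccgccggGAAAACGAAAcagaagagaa

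The letters of 3 other elements were searched in the same way, and no match overlapped another. The NF-kB letters, GGGA, any 1 base and TTTCC, were found in Tlr3 alone among the 7, at -211 to -202 (0.411% of all windows). The STAT letters TTCNNNGAA were found in Eif2ak2 alone, at -178 to -170 (8.29% of all windows). The antioxidant response element letters TGACNNNGC, those of NRF2, were found in Mavs alone, at -73 to -65 (12.4% of all windows). The matches are shown in capitals. The Tlr3 window follows the RefSeq start, which lies inside the gene as the deposited table bounds it.
Tlr3, chr8:45410572-45410601, minus strand: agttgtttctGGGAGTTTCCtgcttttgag
Eif2ak2, chr17:78882732-78882761, minus strand: cctgcagagctTTCCCAGAAtggaagccag
Mavs, chr2:131233979-131234008, plus strand: tgccaggccaaTGACTGCGCttccgatccc

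The bases before the gene are printed for Ddx58 and Mavs. In the fit of all libraries Ddx58 was called against Control with both materials, and Mavs with neither. That contrast does not hold for the gold material without Au_TCPP replicate 2. There Mavs was called higher at a log2 fold change of 0.34 (edgeR adjusted p = 1.5e-04) and Ddx58 at 0.23 (adjusted p = 0.016). The Ddx58 stretch ends where the gene begins in the deposited table, which leaves out the last 3 bases before the RefSeq start. It holds none of the 4 motifs, and the Mavs stretch holds the TGACNNNGC match alone, in capitals. These are matches of letters in a window and describe no binding.
Ddx58, chr4:40239829-40240075, minus strand: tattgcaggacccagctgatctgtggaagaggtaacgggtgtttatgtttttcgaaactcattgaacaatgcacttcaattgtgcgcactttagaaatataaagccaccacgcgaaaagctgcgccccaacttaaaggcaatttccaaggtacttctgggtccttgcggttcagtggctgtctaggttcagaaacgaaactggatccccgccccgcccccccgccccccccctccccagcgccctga
Mavs, chr2:131233813-131234062, plus strand: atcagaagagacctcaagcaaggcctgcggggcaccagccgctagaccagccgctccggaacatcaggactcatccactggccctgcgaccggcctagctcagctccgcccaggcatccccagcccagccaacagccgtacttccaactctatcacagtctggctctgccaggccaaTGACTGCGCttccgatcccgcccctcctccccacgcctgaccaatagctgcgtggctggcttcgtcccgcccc

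Total counts lay between 15477324 and 17494776 per library. Au_TCPP replicate 2 stood apart within its group: 2.85% of the genes tested lay 2-fold or more from the mean of the other two Au_TCPP libraries, against 0.165% to 0.381% in the Control and Cu_TCPP libraries and 0.97% and 1.08% in the other Au_TCPP libraries. Mitochondrial genes took 2.37% of its counts and 1.09% to 1.47% in the other 8 libraries. Ribosomal protein genes took 8.75% to 9.64% of counts in Au_TCPP and 5.01% to 5.57% elsewhere, and the mean length of a counted gene was 4549 to 4669 nt in Au_TCPP and 5601 to 5754 nt elsewhere. The part of these shifts in the results below was not tested. Results on the 10 genes that rest on Au_TCPP replicate 2 are given with and without it. For the lists of other genes only the fit of all libraries is given. In bulk RNA, fewer expressing cells and less RNA per cell cannot be told apart.

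In Control cells the adaptor gene Mavs was the most abundant of the 10 and Zbp1 the least. On the FPKM scale, which is per length, the order of Control levels was Mavs (23.2 ± 0.104, SD, n = 3), Tbk1 (14.4 ± 0.804), Eif2ak2 (12.1 ± 0.621), Irf3 (10.8 ± 0.428), Ddx58 (10.5 ± 0.222), Tmem173 (8.86 ± 0.255), Ifih1 (2.98 ± 0.212), Dhx58 (2.77 ± 0.183), Tlr3 (2.62 ± 0.104) and Zbp1 (0.935 ± 0.197). Neighbours in this order were apart in their ranges except for Irf3 and Ddx58, Ifih1 and Dhx58, and Dhx58 and Tlr3, which overlapped. RIG-I mRNA was thus at the level of the signalling genes, while MDA5, LGP2 and TLR3 mRNAs lay close together well below it. In Cu_TCPP Ddx58 came to 3.57 ± 0.218 FPKM, below Tmem173 at 7.201 ± 0.538. In Au_TCPP Ddx58 (15.7 ± 5.75 FPKM) and Eif2ak2 (15.8 ± 3.79 FPKM) ranked just after Mavs (26.5 ± 5.73 FPKM), and Zbp1 (5.19 ± 3.26 FPKM) came above Dhx58 and Tlr3, but of the neighbours in that group's order only Irf3 and Ifih1 had ranges that were apart.

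**Figure D1:**
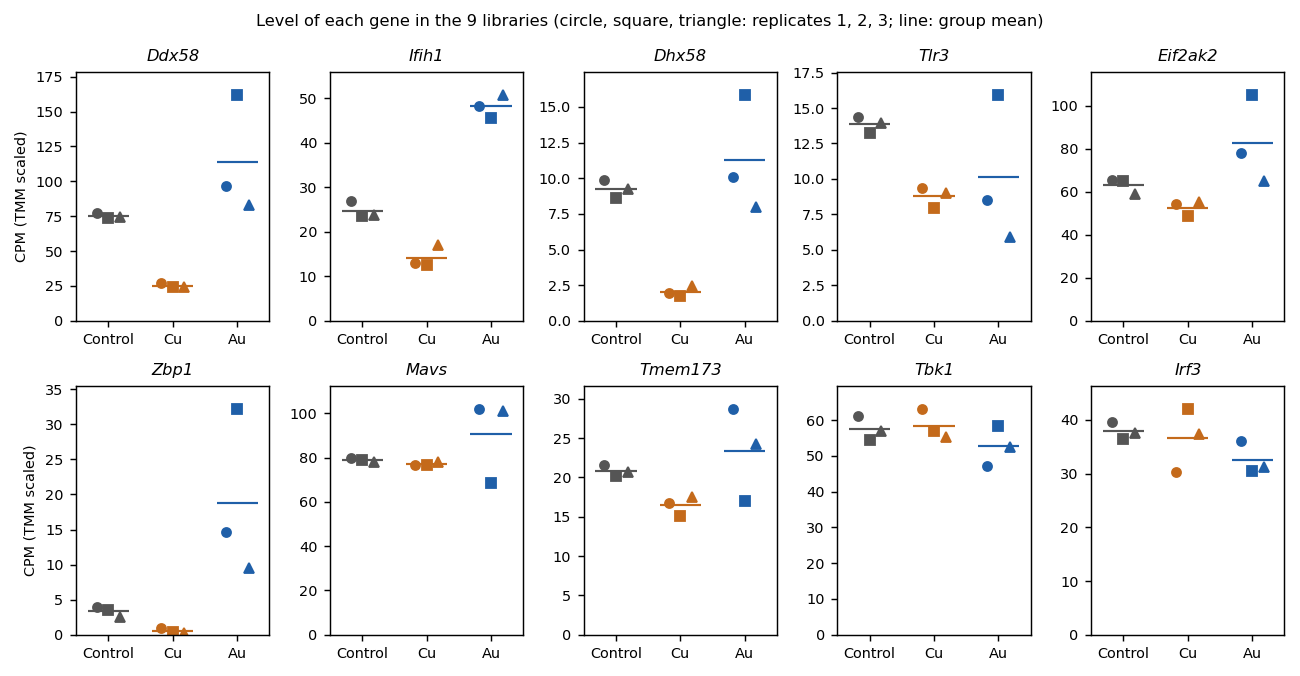
Level of each of the 10 genes in each library (CPM scaled by TMM factors, linear axis from 0, one panel per gene; circle, square and triangle are replicates 1, 2 and 3, and the line is the group mean). The Cu_TCPP libraries lie under all Control libraries for Ddx58, Ifih1, Dhx58, Tlr3, Eif2ak2, Zbp1, Mavs and Tmem173, and Au_TCPP replicate 2 (square) is the highest of all 9 libraries for Ddx58, Dhx58, Tlr3, Eif2ak2 and Zbp1.

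The first comparison asked what the copper material did to this machinery. In the fit of all libraries 5 of the 6 sensors were called lower, and the 4 signalling genes did not pass. Ddx58, Ifih1, Dhx58, Tlr3 and Zbp1 were lower in Cu_TCPP than in Control, and 0 of the 10 were higher. Calls are by edgeR's quasi-likelihood test with Benjamini-Hochberg adjustment over all genes tested (adjusted p under 0.05). This split is not firm, as the Tlr3 call (edgeR adjusted p = 0.049) was lost in 13 of 19 alternative fits. Over all genes tested, 40.4% were called in this comparison, 21.2% lower and 19.2% higher. At an unadjusted p under 0.05, 0 members were higher, as with DESeq2 and limma. The median log2 fold change was -0.50 over the 10 genes and -0.01 over all genes tested. The libraries of Control and Cu_TCPP did not overlap for 8 of the 10, each with Cu_TCPP lower. Without Au_TCPP replicate 2 the members called lower numbered 7 and those called higher 0, in a fit that called more genes at large, 25.0% lower and 25.5% higher. Those 7 took in the signalling gene Tmem173 (edgeR adjusted p = 0.0093) and Eif2ak2 (adjusted p = 0.013). Of all genes, 30.0% were apart with Cu_TCPP lower and 29.4% with Cu_TCPP higher.

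Ddx58 (chromosome 4, 40203773 to 40239828 on mm10) measured 77.2, 73.8 and 74.5 CPM in the Control libraries and 26.8, 24.2 and 24.1 CPM with the copper material. The groups did not overlap, and each was tight. The difference was a 3.01-fold drop, a log2 fold change of -1.59 (SE 0.20, edgeR adjusted p = 1.2e-04).

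Dhx58 (chromosome 11, 100694884 to 100704271), the LGP2 gene, fell further. Its Control libraries held 9.89, 8.63 and 9.21 CPM and its Cu_TCPP libraries 1.93, 1.75 and 2.43 CPM. All Cu_TCPP libraries lay far under the Control range, with a log2 fold change of -2.18 (SE 0.25, 4.53-fold lower, edgeR adjusted p = 1.3e-05).

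Ifih1 (chromosome 2, 62595798 to 62646255), the MDA5 gene, moved less. It measured 26.9, 23.6 and 23.8 CPM in Control and 13.0, 12.6 and 17.1 CPM in Cu_TCPP, where replicate 3 was the highest without reaching the Control range. The log2 fold change was -0.80 (SE 0.12, 1.74-fold lower, edgeR adjusted p = 1.4e-04).

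Zbp1 (chromosome 2, 173206612 to 173218923) had few reads, 72, 65 and 47 counts in Control and 17, 7 and 5 in Cu_TCPP. These correspond to 4.00, 3.51 and 2.58 CPM against 0.964, 0.372 and 0.282 CPM. Replicate 1 was the highest in Cu_TCPP, and no library of that group reached the Control range. The log2 fold change of -2.63 (SE 0.64, 6.20-fold lower, edgeR adjusted p = 0.0081) became -3.32 without Cu_TCPP replicate 1. It did not pass with limma on log2(FPKM + 1) (adjusted p = 0.068), a scale that compresses low levels.

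Tlr3 (chromosome 8, 45395665 to 45411080) stood at 14.4, 13.3 and 14.0 CPM in Control and 9.36, 7.96 and 9.04 CPM in Cu_TCPP. The groups were well apart, yet the call was marginal, with a log2 fold change of -0.66 (SE 0.25, edgeR adjusted p = 0.049). The call was lost in 13 of 19 alternatives, among them every fit that left out 1 Control or 1 Cu_TCPP library (adjusted p up to 0.15) and the replicate block (adjusted p = 0.052). It held without Au_TCPP replicate 2 (adjusted p = 3.1e-04), which takes no part in the difference itself but enters the shared estimate of spread.

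Eif2ak2, the PKR gene, held 65.4, 64.8 and 59.1 CPM in Control and 54.2, 48.7 and 55.2 CPM in Cu_TCPP. The groups did not overlap, but the log2 fold change of -0.26 (SE 0.14) did not pass (edgeR adjusted p = 0.14). Tmem173, the STING gene, showed 21.5, 20.2 and 20.6 CPM against 16.8, 15.1 and 17.5 CPM, again without overlap, and its log2 fold change was -0.34 (SE 0.15, edgeR adjusted p = 0.091). Both passed once the Au_TCPP libraries were kept out of the estimate of spread, with a log2 fold change of -0.25 (adjusted p = 0.0057) for Eif2ak2 and -0.33 (adjusted p = 0.0062) for Tmem173. They also passed without Au_TCPP replicate 2 alone, with adjusted p = 0.013 and 0.0093. In the authors' deposited table both are lower as well, with log2 fold changes of -0.25 (adjusted p = 0.01) and -0.32 (adjusted p = 0.023), so that table has 7 of the 10 lower.

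Mavs, Tbk1 and Irf3 showed only small differences with the copper material. Mavs measured 79.7, 78.9 and 78.2 CPM in Control and 76.7, 76.5 and 77.9 CPM in Cu_TCPP, and its log2 fold change of -0.03 (SE 0.12, edgeR adjusted p = 0.84) changed sign under 4 alternatives. Tbk1 had a log2 fold change of 0.02 (SE 0.09, edgeR adjusted p = 0.86), and its libraries overlapped between 54.4 and 61.0 CPM in Control and 55.1 and 63.2 CPM in Cu_TCPP. Irf3 had -0.05 (SE 0.11, edgeR adjusted p = 0.77), with Control libraries between 36.4 and 39.6 CPM inside the Cu_TCPP range of 30.3 to 42.1 CPM. A miss of the threshold does not show equal levels.

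The next comparison asked what the material with gold did. MDA5, ZBP1, RIG-I and PKR mRNAs were higher in Au_TCPP than in Control, 4 of the 10 genes, and 0 were lower by edgeR's test, where 69.1% of all genes tested were called, 34.4% higher and 34.7% lower. The libraries were apart for Ddx58, Ifih1 and Zbp1, with Au_TCPP higher (35.3% of all genes), and for Irf3, with Au_TCPP lower (36.6% of all genes). At an unadjusted p under 0.05, 0 were lower, and DESeq2 and limma also called 0 lower. The members called higher are 4 of 10, near the share of all genes called higher, and fewer members than genes at large were called in either direction together. Without Au_TCPP replicate 2, 5 members were called higher (Ddx58, Ifih1, Zbp1, Mavs and Tmem173) and 2 lower (Tlr3 and Tbk1), beside 34.1% of all genes higher and 36.9% lower in that fit. The median log2 fold change was 0.25 for the 10 genes and -0.01 for all. Both comparisons with Control use the same Control libraries.

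Ifih1 gave the steadiest rise. Its Au_TCPP libraries held 48.3, 45.6 and 50.8 CPM, each well over the highest Control library at 26.9 CPM. The log2 fold change was 0.96 (SE 0.12, 1.95-fold, edgeR adjusted p = 3.5e-06), and it was called higher in all 19 alternatives, at 0.54 (adjusted p = 8.5e-04) where libraries were scaled by their totals alone.

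Zbp1 rose most in fold. It had 197, 443 and 120 counts in Au_TCPP, or 14.7, 32.3 and 9.47 CPM, all over the highest Control library at 4.00 CPM. The log2 fold change was 2.49 (SE 0.44, 5.60-fold, edgeR adjusted p = 4.6e-04). Replicate 2 was the highest, and without it the log2 fold change was 1.82 (adjusted p = 2.4e-06). The call held in all 19 alternatives.

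Ddx58 measured 96.4, 162.2 and 82.8 CPM in Au_TCPP. Replicate 2 was far over the other two, and replicate 3 was only just over the highest Control library at 77.2 CPM, so the groups came close without overlapping. The log2 fold change of 0.60 (SE 0.19, 1.51-fold, edgeR adjusted p = 0.017) became 0.23 (adjusted p = 0.016) without Au_TCPP replicate 2. The call was lost without Control replicate 2 (adjusted p = 0.056), without Control replicate 3 (adjusted p = 0.051) and with scaling by library totals alone (0.20, adjusted p = 0.48).

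Eif2ak2 gave 78.1, 105.3 and 65.2 CPM in Au_TCPP, with replicate 3 inside the Control range and replicate 2 the highest. Its log2 fold change of 0.39 (SE 0.14, 1.31-fold, edgeR adjusted p = 0.018) did not pass without Au_TCPP replicate 2 (0.16, adjusted p = 0.11), Control replicate 1 (adjusted p = 0.051) or Control replicate 3 (adjusted p = 0.09), or with limma on log2(FPKM + 1) (0.34, adjusted p = 0.051). With library totals alone it was -0.01 (adjusted p = 0.94).

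Dhx58 and Tlr3 did not pass, and their spread came from the same library. Dhx58 held 10.1, 15.9 and 7.97 CPM in Au_TCPP around its Control range, a log2 fold change of 0.29 (SE 0.21, edgeR adjusted p = 0.23) that was -0.06 (adjusted p = 0.77) without replicate 2. Tlr3 held 8.51, 15.9 and 5.92 CPM: replicates 1 and 3 lay under every Control library and replicate 2 over every one. Its log2 fold change of -0.45 (SE 0.25, edgeR adjusted p = 0.13) became -0.96 (adjusted p = 1.7e-05) without replicate 2, a call in the lower direction.

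Among the adaptors, Au_TCPP replicate 2 was the low library instead. Mavs measured 102.2, 68.7 and 101.3 CPM, and Tmem173 measured 28.8, 17.04 and 24.3 CPM, so that in each the groups overlapped through replicate 2 only. Neither passed (Mavs 0.20, edgeR adjusted p = 0.15; Tmem173 0.17, adjusted p = 0.33), and both were called higher without replicate 2, at 0.34 (adjusted p = 1.5e-04) and 0.33 (adjusted p = 0.011). Both had a negative sign with library totals alone, -0.23 for Mavs and -0.26 for Tmem173, and neither then passed.

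The kinase gene Tbk1 and the factor gene Irf3 did not pass. Tbk1 held 47.3, 58.4 and 52.5 CPM in Au_TCPP against 61.0, 54.4 and 57.0 CPM in Control, a log2 fold change of -0.12 (edgeR adjusted p = 0.26) that was called without Au_TCPP replicate 2 (-0.23, adjusted p = 0.026). Irf3 held 36.0, 30.4 and 31.2 CPM, all under the lowest Control library at 36.4 CPM, and its log2 fold change was -0.22 (edgeR adjusted p = 0.11). Irf3 and Bcl2l12, on the opposite strand, share 88 nt of exon, and the strand setting of the counting is unknown here. Irf3 passed as lower without Cu_TCPP replicate 1 (adjusted p = 0.036), Cu_TCPP replicate 2 (adjusted p = 0.047) or Au_TCPP replicate 1 (adjusted p = 0.042).

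The choice of scaling bears on this comparison. With library totals alone the median of all genes shifted to -0.43 in Au_TCPP against Control and to -0.33 in Au_TCPP against Cu_TCPP, and the split of calls went from 4783 higher and 4828 lower to 2626 higher and 7098 lower in the first, and from 4814 and 4362 to 2830 and 6526 in the second. On that scale Ifih1 and Zbp1 stayed higher against Control, Tlr3 (-0.85), Tbk1 (-0.54) and Irf3 (-0.64) were called lower, and Ddx58 and Eif2ak2 were not called. Tlr3, Tbk1 and Irf3 lay below the median gene's -0.43 against Control and the other 7 genes above it. With the shift of the median not taken off, Ifih1 was at 0.54 and Zbp1 at 2.09. In Cu_TCPP against Control, offsets for gene length moved the split of all calls from 2673 higher and 2944 lower to 3718 higher and 2379 lower, while Ddx58, Ifih1, Dhx58 and Zbp1 stayed lower. In Au_TCPP against Control these offsets gave 0.89 for Ddx58 (edgeR adjusted p = 0.0029) and 0.57 for Eif2ak2 (adjusted p = 0.0025). Ifih1 was 1.30 (adjusted p = 1.4e-07) and Zbp1 2.48 (adjusted p = 4.3e-04). Dhx58 (0.26), Mavs (0.19), Tmem173 (0.01), Tlr3 (-0.27), Tbk1 (-0.07) and Irf3 (-0.22) did not pass.

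**Figure D2:**
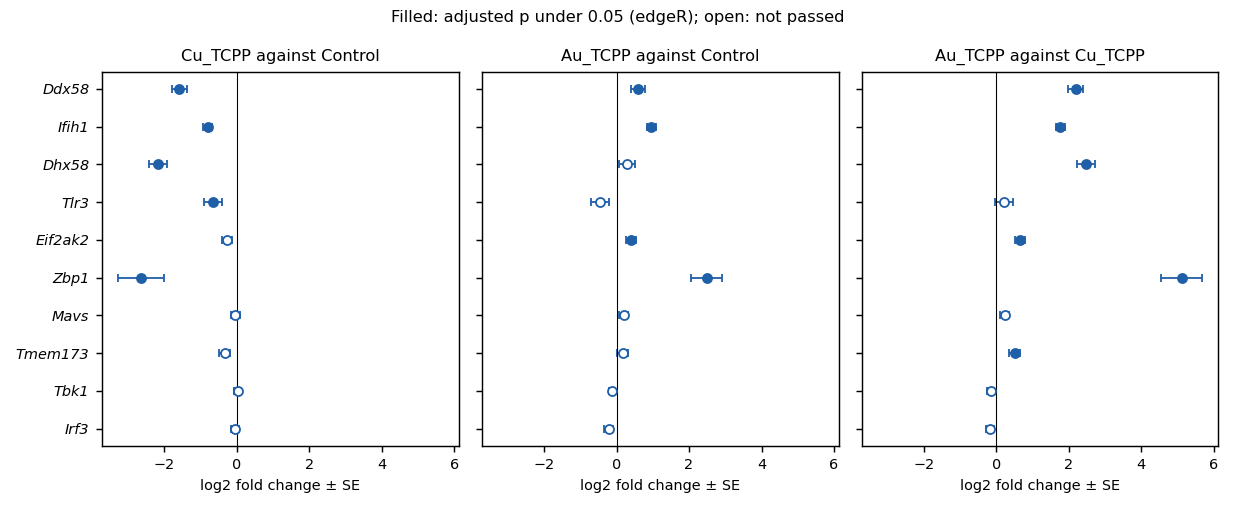
log2 fold change of each gene in the 3 comparisons, with bars of 1 standard error (filled points have an edgeR adjusted p under 0.05). Ddx58, Ifih1, Dhx58 and Zbp1 lie left of 0 with the copper material and right of 0 in Au_TCPP against Cu_TCPP, while Mavs, Tbk1 and Irf3 lie near 0 in all 3 panels.

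Both materials were then compared with each other. Of the 10 genes, 6 were higher in Au_TCPP than in Cu_TCPP and 0 were lower by edgeR's test, where 65.9% of all genes were called, 34.6% higher and 31.3% lower. The count of lower members was also 0 at an unadjusted p under 0.05 and with DESeq2 and limma. Without Au_TCPP replicate 2 the counts were 7 higher and 1 lower, beside 33.6% and 34.0% of all genes in that fit. The median log2 fold change was 0.58 over the 10 genes and 0.04 over all genes tested. The libraries of the groups did not overlap for 5 of the 10 genes, each higher in Au_TCPP, as was so of 34.4% of all genes, while 32.6% of all genes were apart with Au_TCPP lower.

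The widest difference was in Zbp1, at 5.12 (SE 0.56, 34.7-fold, edgeR adjusted p = 1.6e-05), from 0.539 ± 0.370 CPM in Cu_TCPP to 18.8 ± 11.9 CPM in Au_TCPP (SD, n = 3). It ranged from 4.44 without Au_TCPP replicate 2 to 5.77 without Cu_TCPP replicate 1. The RIG-I-like receptors followed: Dhx58 at 2.47 (SE 0.25, 5.56-fold, edgeR adjusted p = 5.7e-07), Ddx58 at 2.19 (SE 0.21, 4.55-fold, edgeR adjusted p = 2.2e-06) and Ifih1 at 1.76 (SE 0.12, 3.40-fold, edgeR adjusted p = 1.2e-08). These 4 were called higher in all 19 alternatives. Without Au_TCPP replicate 2 they remained at 2.11 for Dhx58, 1.81 for Ddx58 and 1.77 for Ifih1.

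Eif2ak2 was 1.57-fold higher in Au_TCPP than in Cu_TCPP, a log2 fold change of 0.65 (SE 0.14, edgeR adjusted p = 7.0e-04), lost with library totals alone (0.29, adjusted p = 0.14). Tmem173 was 1.42-fold higher, at 0.50 (SE 0.15, edgeR adjusted p = 0.0095), although the groups overlapped through Au_TCPP replicate 2 at 17.04 CPM. The Tmem173 call was lost without Cu_TCPP replicate 2 (0.40, adjusted p = 0.067), without Au_TCPP replicate 1 (0.29, adjusted p = 0.11), with offsets for gene length (0.24, adjusted p = 0.22) and with library totals alone (0.12, adjusted p = 0.47). In the authors' deposited table Tmem173 misses the threshold here too, with a log2 fold change of 0.45 and an adjusted p of 0.055.

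Tlr3 did not differ between the materials beyond its spread, at 0.21 (SE 0.26, edgeR adjusted p = 0.49). Without Au_TCPP replicate 2 the sign turned, to -0.32 (adjusted p = 0.094). It was the only sensor of RNA among the 10 whose call was not passed in this comparison. Mavs (0.24, edgeR adjusted p = 0.096), Tbk1 (-0.15, adjusted p = 0.19) and Irf3 (-0.17, adjusted p = 0.22) did not pass either. Mavs was called higher (0.37, adjusted p = 8e-05) and Tbk1 lower (-0.26, adjusted p = 0.012) without Au_TCPP replicate 2, and Irf3 was called lower (-0.33, adjusted p = 0.017) without Cu_TCPP replicate 1.

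**Figure D3:**
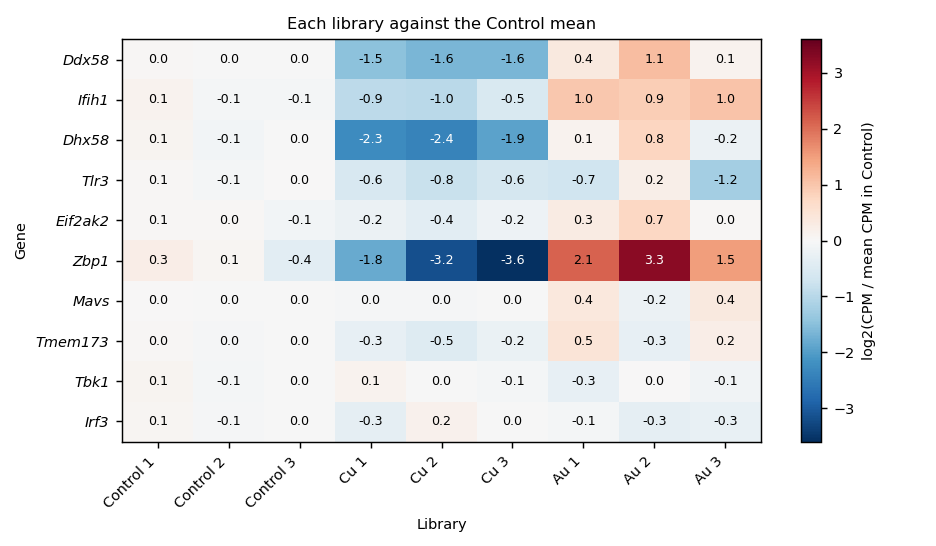
log2 ratio of each library's CPM to the mean of the Control libraries, with rows for the 10 genes and columns for the 9 libraries. Au_TCPP replicate 2 has the reddest cell of its group for Ddx58 (1.11), Dhx58 (0.78), Eif2ak2 (0.74), Tlr3 (0.20) and Zbp1 (3.26) and a blue cell for Mavs (-0.20) and Tmem173 (-0.29), whereas Ifih1 is even across the group (0.88 to 1.04).

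The genes thus varied among themselves in how they behaved inside the Au_TCPP group. Against the mean of the other two Au_TCPP libraries, replicate 2 was higher by 1.41 (log2) for Zbp1, 1.11 for Tlr3, 0.86 for Ddx58, 0.79 for Dhx58 and 0.56 for Eif2ak2. It was lower for Tmem173 (-0.62) and Mavs (-0.56), and within 0.23 for Tbk1, Ifih1 (-0.12) and Irf3 (-0.14). Ifih1 and Ddx58, whose products share the adaptor MAVS, therefore parted in this library. Replicate 2 was the highest of the group for 6 of the 10 genes and for 38.0% of all genes tested. In Control, replicate 1 was the highest library for all 10 genes and for 35.4% of all genes, by at most 0.36 (Zbp1).

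A ratio of 2 genes within a library does not depend on how libraries are scaled. The FPKM ratio of Ddx58 to its adaptor Mavs was 0.460, 0.444 and 0.452 in Control and 0.166, 0.15 and 0.146 in Cu_TCPP, with no overlap. In Au_TCPP it was 0.447, 1.12 and 0.388, with replicate 1 inside the Control range, replicate 2 above it and replicate 3 below it. The ratio of Ifih1 to Mavs was 0.138, 0.122 and 0.125 in Control. In Cu_TCPP it was lower, at 0.0694, 0.0673 and 0.0897, and in Au_TCPP higher, at 0.194, 0.272 and 0.205, so the 3 groups were apart. The ratio of Zbp1 to Mavs was also apart in all 3 groups: at least 0.0312 in Control, at most 0.0119 in Cu_TCPP and at least 0.0886 in Au_TCPP. The exact two-sided permutation p was 0.1 for each of these separations, the smallest that 3 against 3 libraries allow, and 0.9 for Ddx58 to Mavs in Au_TCPP against Control. A ratio shows unequal change and not which gene moved.

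The surrounding pathway was read from 7 lists of other genes, each given by its counts. Over all genes tested, 19.2% were called higher and 21.2% lower with copper, and 34.4% higher and 34.7% lower with gold. List counts near these shares show no change particular to a list, and no list was tested as a set. The list of interferons and early targets of IRF3 had the widest medians of the 7. Of its 14 genes, 9 were tested. With the copper material 7 fell, 1 rose and 1 did not pass (median -1.20). With the gold material 8 rose, 0 fell and 1 did not pass (median 2.15). Of the 13 genes of this list with a RefSeq window, 7 held the ISRE letters near the start. The 1 riser with copper was Isg20, an exonuclease, at 53.4 CPM in Control and 69.2 CPM in Cu_TCPP (named after its values were seen). Isg15, a ubiquitin-like modifier, went from 14.7 ± 1.61 CPM in Control to 5.44 ± 1.27 in Cu_TCPP and 92.4 ± 23.0 in Au_TCPP (SD, n = 3). Ifit1, which binds foreign RNA caps, went from 3.99 ± 0.597 to 0.910 ± 0.484 and 26.6 ± 1.91 CPM, and the chemokine gene Ccl5 from 8.89 ± 0.411 to 5.65 ± 1.23 and 39.6 ± 3.02 CPM. Rsad2, the viperin gene, had 45.1, 93.1 and 43.4 CPM in Au_TCPP, with replicate 2 again the highest, whereas Ifit1 was even across that group at 28.3, 24.5 and 27.0 CPM. In Oasl1 (112.2, 60.2 and 112.7 CPM) and Cxcl10 (13.0, 7.06 and 16.65 CPM), chosen with their values in view, replicate 2 was the lowest. The list thus held genes of either kind. Ifit2, also named after its values were seen, held 10.4, 41.4 and 11.4 CPM in Au_TCPP against 19.6 to 25.3 CPM in Control. Its replicates 1 and 3 thus lay under every Control library and replicate 2 over every one.

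The interferon genes themselves were at or near 0. Ifna2, Ifna4, Ifnl2 and Ifnl3 had 0 counts in all 9 libraries. Ifnb1 had 1 count in Cu_TCPP replicate 3, 3 counts in Au_TCPP replicate 3 and 0 in the other 7 libraries. At these depths a change in them was not detectable, and none was tested.

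Of 18 other receptors of nucleic acids, 14 were tested. With the copper material 6 rose, 5 fell and 3 did not pass (median 0.05), and with the gold material 8 rose, 3 fell and 3 did not pass (median 0.71). Ddx60, a helicase that aids RIG-I, fell from 7.70 ± 1.503 CPM in Control to 1.63 ± 0.359 in Cu_TCPP (SD, n = 3; log2 fold change -2.24, edgeR adjusted p = 5.8e-04). In Au_TCPP it held 12.2, 28.5 and 11.4 CPM, replicate 2 being the highest. Ifi204, a DNA sensor of the PYHIN family, rose from 56.4 ± 2.46 to 165.4 ± 11.5 CPM with the gold material (1.55, edgeR adjusted p = 1.6e-09) and fell to 41.6 ± 3.20 CPM with copper (-0.44, adjusted p = 0.0011). Its relatives Ifi203 and Mndal fell with copper (-0.81 and -1.06) and rose with gold, but they belong to 1 gene family and their annotated exons share 37 nt on the same strand, so reads may have been split between them, which was not tested. Mb21d1, which encodes the DNA sensor cGAS and is named after its values were seen, went the other way from Ddx58, Ifih1 and Dhx58 with copper. Its 3 Control libraries held 15.9 to 18.3 CPM, its Cu_TCPP libraries 24.1 to 24.6 CPM and its Au_TCPP libraries 24.8 to 37.2 CPM (0.48, edgeR adjusted p = 0.0088, and 0.84, adjusted p = 4.7e-05). The rise with copper was not particular to it. Dhx9 (0.71, edgeR adjusted p = 7.3e-04), Lrrfip1 (0.61), Polr3f (0.42), Polr3a (0.40) and Ddx41 (0.34) were called higher too. The endosomal receptors Tlr7, Tlr8 and Tlr9 had 5, 0 and 6 counts over all 9 libraries, so of the 4 endosomal receptors read here Tlr3 alone had enough counts to be tested.

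Regulators of the RIG-I-like receptors and of MAVS were mixed. Of 18 tested, 4 rose, 2 fell and 12 did not pass with copper (median -0.03), and 6 rose, 6 fell and 6 did not pass with gold (median 0.19). Ddx3x, a helicase that binds TBK1 and MAVS, rose with both, from 287.3 ± 16.2 CPM in Control to 448.5 ± 22.7 in Cu_TCPP (0.64, edgeR adjusted p = 2.3e-04) and 655.9 ± 91.0 in Au_TCPP (1.19, adjusted p = 1.3e-07). Nlrx1, a mitochondrial protein that holds MAVS in check, fell from 8.07 ± 1.51 CPM in Control to 1.41 ± 0.679 in Au_TCPP (-2.49, edgeR adjusted p = 1.6e-06) and to 5.35 ± 0.248 in Cu_TCPP (-0.59, adjusted p = 0.049). Mark2, a kinase, fell with gold from 102.0 ± 5.41 to 41.0 ± 5.28 CPM (-1.31, edgeR adjusted p = 3.8e-08) and did not pass with copper (-0.03, adjusted p = 0.81).

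Of 20 adaptors, kinases and ligases further down, 19 were tested. With copper 4 rose, 5 fell and 10 did not pass (median 0.09), and with gold 10 rose, 5 fell and 4 did not pass (median 0.33). Irf7, the factor that amplifies interferon transcription, fell with copper from 9.11 ± 0.508 to 1.28 ± 0.346 CPM (-2.83, edgeR adjusted p = 0.0018) and in Au_TCPP stood at 32.4, 71.6 and 24.5 CPM. Irf7 thus had the same high library, replicate 2, as Ddx58 and Zbp1. Ripk3, the kinase through which ZBP1 starts necroptosis, had 3 counts over all 9 libraries and was not tested. Traf3, a ligase below MAVS, rose with copper from 76.7 ± 1.39 to 123.8 ± 3.34 CPM (0.69, edgeR adjusted p = 7.1e-05) and was 51.6 ± 8.02 CPM in Au_TCPP. Ikbke, the kinase most like TBK1, fell with gold from 159.4 ± 7.29 to 54.5 ± 8.80 CPM (-1.55, edgeR adjusted p = 1.3e-08) and with copper to 113.9 ± 4.44 CPM (-0.48, adjusted p = 0.0018). Myd88, the adaptor of most Toll-like receptors but not of TLR3, rose with gold from 23.1 ± 1.83 to 63.7 ± 5.43 CPM (1.46, edgeR adjusted p = 1.1e-08) and did not pass with copper (0.04, adjusted p = 0.76); 290 nt of its exons lie opposite Acaa1a, so without knowledge of strand its reads are uncertain.

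Of 17 nucleases and editors that clear self nucleic acid, 13 were tested. With copper 1 rose, 4 fell and 8 did not pass (median -0.19), and with gold 3 rose, 7 fell and 3 did not pass (median -0.52). Skiv2l, an exosome helicase, fell from 73.0 ± 2.90 CPM in Control to 51.2 ± 2.28 with copper (-0.51, edgeR adjusted p = 1.9e-04) and 23.7 ± 1.14 with gold (-1.62, adjusted p = 9.5e-10). Dicer1, which cuts double-stranded RNA, rose with copper from 91.4 ± 5.76 to 128.2 ± 3.64 CPM (0.49, edgeR adjusted p = 2.4e-04) and fell with gold to 39.5 ± 2.18 CPM (-1.21, adjusted p = 1.2e-08). Adar, which edits double-stranded RNA so that MDA5 does not read it, fell with gold from 89.3 ± 0.469 to 60.2 ± 3.22 CPM (-0.57, edgeR adjusted p = 1.4e-05) and with copper to 73.3 ± 4.03 CPM (-0.28, adjusted p = 0.0092); 1365 nt of its exons lie opposite Chrnb2. Trex1, a DNase, is listed at 0 counts in all 9 libraries, but all 1147 nt of its exons lie within Atrip on the same strand, so its level cannot be read from this table.

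Of 14 partners, substrates and phosphatases of PKR, all were tested. With copper 4 rose, 1 fell and 9 did not pass (median 0.11), and with gold 7 rose, 4 fell and 3 did not pass (median 0.14). Ppp1r15a encodes GADD34, the subunit that directs removal of the phosphate PKR and related kinases place on eIF2α. Its Control libraries lay between 12.4 and 12.8 CPM, its Cu_TCPP libraries between 8.11 and 13.5 CPM and its Au_TCPP libraries between 386.9 and 485.6 CPM, a log2 fold change of 5.11 with gold (SE 0.15, 34.5-fold, edgeR adjusted p = 5.4e-12), while with copper it did not pass (-0.23, adjusted p = 0.24). Eif2s1, which encodes eIF2α itself, rose from 140.8 ± 0.370 CPM to 218.2 ± 10.5 with copper (0.63, edgeR adjusted p = 1.3e-04) and 311.7 ± 37.2 with gold (1.15, adjusted p = 8e-08).

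Of 15 genes for STING trafficking and stability, 14 were tested. With copper 5 rose, 5 fell and 4 did not pass (median -0.04), and with gold 5 rose, 6 fell and 3 did not pass (median 0.10). Surf4, which returns STING to the endoplasmic reticulum, rose with gold from 126.0 ± 3.14 to 278.0 ± 66.8 CPM (1.14, edgeR adjusted p = 4.6e-06). The palmitoyl transferase genes Zdhhc3 and Zdhhc7 fell with gold, Zdhhc3 from 111.0 ± 1.16 to 69.9 ± 3.07 CPM (-0.67, edgeR adjusted p = 1.9e-06) and Zdhhc7 from 45.6 ± 2.04 to 23.6 ± 3.33 CPM (-0.95, adjusted p = 1.2e-06). With copper both rose, by 0.26 for Zdhhc3 (edgeR adjusted p = 0.011) and 0.32 for Zdhhc7 (adjusted p = 0.019) on the log2 scale, and so did Surf4, by 0.48 (adjusted p = 0.013).

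**Figure D4:**
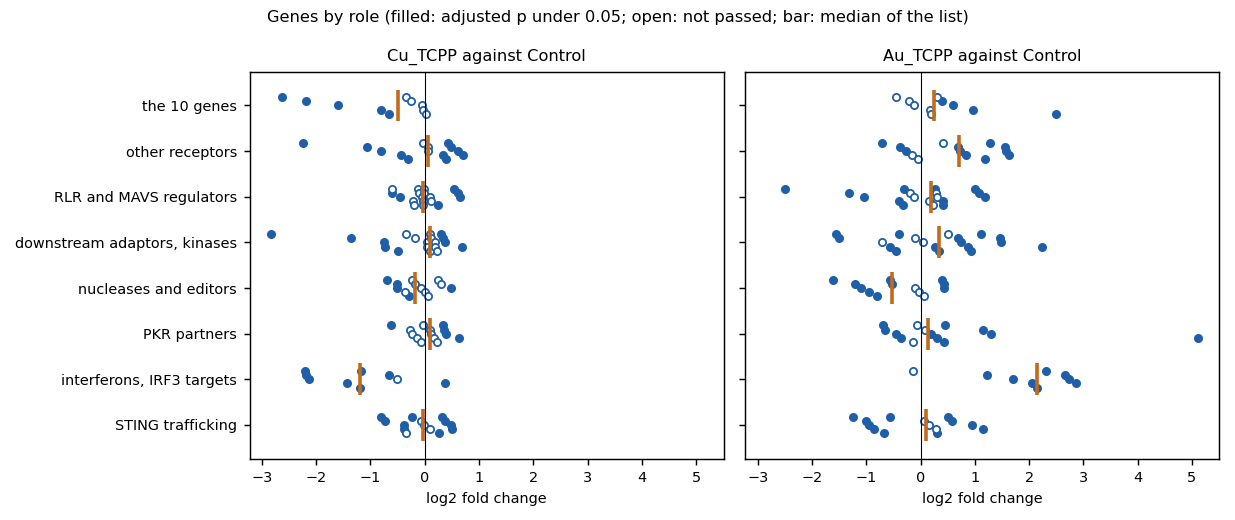
log2 fold change of every tested gene of the 10 and of the 7 other lists, against Control, for the copper material (left) and the gold material (right); filled points have an edgeR adjusted p under 0.05 and the bar is the median of the list. The list of interferons and IRF3 targets has its median at -1.20 on the left and 2.15 on the right, and Ppp1r15a is the point at 5.11 in the list of PKR partners.

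Markers of other cell types were read beside these genes. Of 15 macrophage markers 3 were tested, and their sum over the whole list was 40.9 to 44.1 CPM in Control, 27.9 to 31.4 in Cu_TCPP and 79.9 to 98.5 in Au_TCPP, so the sum moved in the direction of the sensors. Cd68, a lysosomal protein, made up much of it, at 27.1, 11.3 and 61.3 CPM on average, and was called lower with copper and higher with gold. Cd14 averaged 12.2, 11.7 and 20.5 CPM and did not pass with copper (log2 fold change -0.06, edgeR adjusted p = 0.69), and Mrc1, at 2.25, 5.92 and 6.10 CPM, was higher with copper (1.39, adjusted p = 0.016); both were higher with gold. Of the untested macrophage markers, Adgre1, Marco, Tyrobp, C1qa and C1qb had 0 counts in all 9 libraries. Over all 9 libraries Csf1r had 9 counts, Itgam 2, Fcgr1 6, Cd163 3, Ptprc 7, Mertk 4 and Lyz2 48. Of 14 lymphocyte and dendritic cell markers 1 was tested, Cd3d and Siglech were at 0 throughout, and the sums were 1.67 to 2.47, 0.796 to 1.70 and 2.02 to 4.18 CPM. The tested gene, Lck, did not pass with copper (log2 fold change -0.47) and was called higher with gold (0.83). Fibroblast markers (3 of 12 tested, with Col3a1, Lum, Pdgfrb and Thy1 at 0) summed to 35.9 to 41.4, 16.7 to 20.2 and 27.4 to 32.6 CPM. Most of that was Pdgfra, at 33.1 to 37.9, 15.5 to 18.8 and 26.1 to 31.4 CPM. Endothelial markers (2 of 12 tested, with Emcn, Erg and Cldn5 at 0) summed to 42.9 to 48.2, 36.4 to 39.5 and 31.3 to 37.3 CPM. Most of that was Eng, at 41.1 to 45.6, 35.3 to 37.1 and 29.6 to 35.2 CPM. The epithelial markers of the labelled carcinoma line were present, with 9 of 14 tested and sums of 3058 to 3321, 2925 to 3267 and 4590 to 5515 CPM. With copper 6 of the 9 were called lower, 1 higher and 2 did not pass (median log2 fold change -0.35). With gold 8 were called higher and 1 lower (median 0.61). Most of these markers thus also moved in the direction of the sensors. Krt8 did not with copper: it averaged 858.8 CPM in Control and held 1081 to 1237 CPM in the Cu_TCPP libraries. Krt5 was at 0. The part of these shifts in the results on the 10 genes was not tested.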

How the data were processed

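RNA of 9 libraries was grouped by title into Control, Cu_TCPP and Au_TCPP, 3 each. The submitters' processing notes name mm10, Bowtie 0.12.9, Cufflinks 2.1.1 and HTSeq; the strand setting is not stated there. Raw read counts per gene were deposited by the authors, per the file headers. FPKM values, which the authors scaled by length and depth, stand beside them per the file headers. Columns of log2 fold changes and p-values from a test by the authors, which the sources used here do not name, were deposited for each comparison.

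The test was edgeR 4.0.16 under R 4.3.3, a robust quasi-likelihood fit over the 9 libraries (filterByExpr, TMM factors, 1 mean per group), with Benjamini-Hochberg adjustment over 13915 genes and a threshold of 0.05. CPM are scaled by TMM factors, and the standard error is the absolute log2 fold change divided by the square root of F. The fit was tested on simulated data with few changed genes, as many raised as lowered. That test does not bear on scaling or false calls where as many genes change as here. The common dispersion was 0.0112. Alternatives were RLE factors, library totals, no filter, a filter of 1 CPM in 3 libraries, a fit of only the 6 libraries compared, DESeq2 1.42.0, limma 3.58.1 on log2(FPKM + 1) and log2(FPKM + 0.1), a replicate block, offsets for gene length (splines with 5 degrees of freedom), and each library left out in turn. Permutation tests used scipy 1.17.1 under Python 3.11.15 with numpy 2.4.6 and pandas 2.3.3, and figures matplotlib 3.10.9. Coordinates of genes are those of the table; 9 of the 10 genes have the same in GENCODE M21. Sequences come from RefSeq windows on GRCm38.p6.

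The members and lists were chosen with earlier results of these data known, so that none of them is independent evidence. Named were all 10 members and, of each list and comparison, up to 3 called genes with the smallest p. Which of them to print was decided with their values in view. Of each marker list, the rule named the tested gene with the highest mean CPM, and markers printed beside it were chosen with their values in view.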

Additional observations from a re-analysis of the deposited data

How the results depend on the processing

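Across the 19 alternatives, Ddx58, Ifih1 and Dhx58 against Control in Cu_TCPP, Ifih1 and Zbp1 in Au_TCPP, and Ddx58, Ifih1, Dhx58 and Zbp1 between the materials kept direction and call. With library totals alone, in Au_TCPP against Control the count of members higher was 2 and lower 3, and the log2 fold change was -0.11 for Dhx58, -0.0146 for Eif2ak2, -0.23 for Mavs and -0.26 for Tmem173; in Au_TCPP against Cu_TCPP 2 members were lower, Tlr3 was -0.14 and Mavs -0.15; Tbk1 in Cu_TCPP was -0.025. With no filter 1 member, Tlr3, was lower in Au_TCPP against Control. With offsets for gene length Mavs was 0.0707 and Irf3 0.0546 in Cu_TCPP, and 1 member was lower between the materials. Mavs in Cu_TCPP was 0.0006 with DESeq2 and 0.0005 with limma at either pseudocount, and limma on log2(FPKM + 1) called 3 members lower there. The causes were not tested.

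Leaving out 1 library at a time, members lower in Cu_TCPP numbered 4 to 7, higher in Au_TCPP 2 to 5 (2 without Control replicate 3) and lower there 0 to 2, higher between the materials 5 to 7 and lower 0 to 1; genes called in all numbered 4226 to 7179, 8859 to 10109 and 8521 to 9622. In Cu_TCPP against Control, Tbk1 lay between -0.0271 and 0.0747 and Irf3 between -0.15 and 0.0807. In Au_TCPP against Control, Dhx58 lay between -0.0575 and 0.46 and Tmem173 between -0.0352 and 0.33. Between the materials, Tlr3 lay between -0.32 and 0.43. Same-numbered libraries had correlations of their deviations between -0.0846 and 0.0897, and differently numbered ones between -0.0799 and 0.0785. No pairing by number was seen, but weak correlations cannot exclude that samples were handled together. With the replicate block 5508, 9505 and 9059 genes were called against 5617, 9611 and 9176. Among members only Tlr3 in Cu_TCPP lost its call (-0.66, edgeR adjusted p = 0.052). Depth limits Zbp1 in Cu_TCPP, with 5 to 17 counts, and the interferon genes.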
